A study of Mus musculus with 16 samples.

Results

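Jejunal RNA from irradiated mice on a methionine-supplemented diet was compared with that from irradiated mice on a methionine-adequate diet. The comparison uses the 8 libraries labelled with a dose of 8.5 Gy out of 16 in the series, 4 per diet, and every library was taken by its label alone. All mice were male, of the inbred strain CBA/J and 8 weeks old, with no transgene or deletion named. The source was the proximal jejunum, and both irradiated groups had received gamma radiation. The supplement was 300%, and the study states a period of 6 days without saying whether this is time on the diet or time after exposure. The other 8 libraries, 4 per diet at 0 Gy, serve below as the unirradiated reference. Irradiated libraries on the adequate diet are called A1 to A4 and those on the supplemented diet S1 to S4. These numbers only name libraries and pair none. The labels give no animal, batch or date for a library, so p-values measure the spread between these libraries.

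Methionine is an essential amino acid that cells convert to S-adenosylmethionine, the methyl donor for DNA, RNA, histones and small molecules. The homocysteine left after methyl transfer is remade into methionine with folate-bound carbon or passed into cysteine and glutathione by transsulfuration. The jejunal epithelium is renewed from stem cells at the crypt base, which makes it one of the tissues most easily injured by ionizing radiation. Absorptive enterocytes on the villus carry the brush border enzymes and transporters, and Paneth and goblet cells secrete antimicrobial peptides and mucus.

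The irradiated libraries held 10.21, 2.85, 10.91 and 11.44 M (mega) estimated counts for A1 to A4 and 3.43, 15.51, 15.27 and 11.78 M for S1 to S4. A2 and S1 are therefore the least precise, and they lie at the opposite ends of the first principal component of the 8 libraries (scores -74.4 and 59.3, 32.3% of the variance). Jejunal enterocyte markers were abundant in all 8, with lactase (Lct) at 365 to 3553 counts per M counts (CPM). Libraries of the same diet were no more alike than libraries of different diets. The correlation of log2 CPM across genes had a median of 0.947 over 12 pairs within a diet (0.911 to 0.979) and 0.951 over 16 pairs between diets (0.909 to 0.973).

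At this sample size no gene was called for the diet after irradiation. In edgeR's quasi-likelihood F test, 0 of 16558 genes had a Benjamini-Hochberg adjusted p under 0.05, which is 0% of the genes tested, and the smallest adjusted p was 0.486. Without adjustment, 871 genes had p under 0.05, or 5.26% of the genes tested, with 352 (2.13%) higher and 519 (3.13%) lower on the supplemented diet. DESeq2 called 11 genes and limma voom with library weights called 14, while limma voom without weights called 0. The intervals show what the libraries could resolve. For 12839 genes (77.5%) the 95% interval of the diet difference lay within a 2-fold change in either direction, and for 7656 (46.2%) within 1.5-fold. Precision followed abundance, since 93.3% of the 4861 genes with a mean log2 CPM of 5 or more were held within 2-fold but 18.8% of the 2643 genes under a mean log2 CPM of 1. Differences below are given as values on the log2 scale, supplemented minus adequate, with their standard error (SE), and none passed the adjusted test.

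Among genes eligible for naming, the higher values with the smallest p came from 6 genes of unlike roles. Predicted genes, pseudogenes, mitochondrial genes, most small RNA classes and genes with a mean log2 CPM under 1 were not eligible. A pseudogene left out by this rule, Gm2223, had a smaller p than all 6. Its difference was 0.71 ± 0.14 (edgeR quasi-likelihood, adjusted p = 0.486). Alb, which encodes serum albumin and is chiefly a liver gene, was at 2.22, 4.56, 0.307 and 1.92 CPM on the adequate diet and 5.87, 18.9, 8.54 and 19.6 CPM on the supplemented diet. All 4 supplemented libraries were above all 4 adequate ones, although the level was low throughout. The difference was 2.86 ± 0.56 (edgeR quasi-likelihood, adjusted p = 0.486), and DESeq2 gave an adjusted p of 0.00613. Alb was also 1.26 higher on this diet at 0 Gy, with an adjusted p of 0.456 in edgeR's test. Other liver markers give the context. Of 16 liver and stomach markers, 8 passed the filter on low counts, 1 with p under 0.05 in each direction, and the stomach genes Atp4b, Chia1, Gkn1, Gkn2, Muc5ac and Tff1 had no count in any irradiated library. The summed level of the 16, Alb included, was 14.9 to 21.99 CPM on the adequate and 17.9 to 38.1 CPM on the supplemented diet. Transthyretin (Ttr), another liver product, was at 3.06, 4.15, 3.28 and 2.08 CPM on the adequate diet and 3.52, 4.03, 3.44 and 3.88 CPM on the supplemented diet, and these groups overlap. The liver genes Ahsg, Cyp2e1 and Fgb were highest in S2 and S4, the libraries with most Alb. Ahsg was at 1.21 and 0.776 CPM there and at most 0.415 CPM in the other 6, and Cyp2e1 at 4.43 and 5.91 CPM there and at most 3.27 CPM elsewhere. Fgb, a fibrinogen chain, was at 1.07 and 0.485 CPM in S2 and S4 and had no count in the other 6. Serpina1a, also a liver gene, did not follow this order. It was at 3.89 CPM in S2 but at 1.45 CPM in S4, below A1, A3, S1 and S3. The part of liver RNA in the Alb difference was not tested.

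Ninj1, a membrane protein that ruptures the plasma membrane in lytic cell death, was at 3.91, 3.73, 3.69 and 4.75 CPM on the adequate diet and 7.04, 6.18, 6.89 and 6.11 CPM on the supplemented diet. The groups do not overlap, and the difference was 0.68 ± 0.14 with an adjusted p of 0.525 in edgeR's test, against -0.068 at 0 Gy. Pipox oxidizes sarcosine and pipecolic acid in peroxisomes and is one of 2 genes here that lie next to one-carbon metabolism. It was at 14.5, 13.7, 12.5 and 13.99 CPM on the adequate diet and 17.02, 17.9, 17.4 and 21.3 CPM on the supplemented diet, so again without overlap, and the difference was 0.43 ± 0.11. Pipox was below its unirradiated level on both diets, where the group means were 31.2 and 28.6 CPM. The other is Adk, adenosine kinase, which clears the adenosine released when S-adenosylhomocysteine is split. Adk was at 34.3, 33.2, 32.9 and 37.9 CPM on the adequate diet and 45.2, 42.5, 43.6 and 44.1 CPM on the supplemented diet. These are narrow groups without overlap, and the difference of 0.34 ± 0.090 is the smallest of the 6. The matrix glycoprotein gene Tnxb differed by 0.49 ± 0.13 and the gelatinase gene Mmp9 by 0.67 ± 0.18, both without overlap. Mmp9 was at 35.7, 35.7, 37.2 and 22.6 CPM on the adequate diet and 61.9, 45.1, 51.7 and 50.1 CPM on the supplemented diet, and A4 stands below the other libraries of its group. The adjusted p of Pipox, Adk, Tnxb and Mmp9 lay between 0.743 and 0.773 in edgeR's test.

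**Figure D1:**
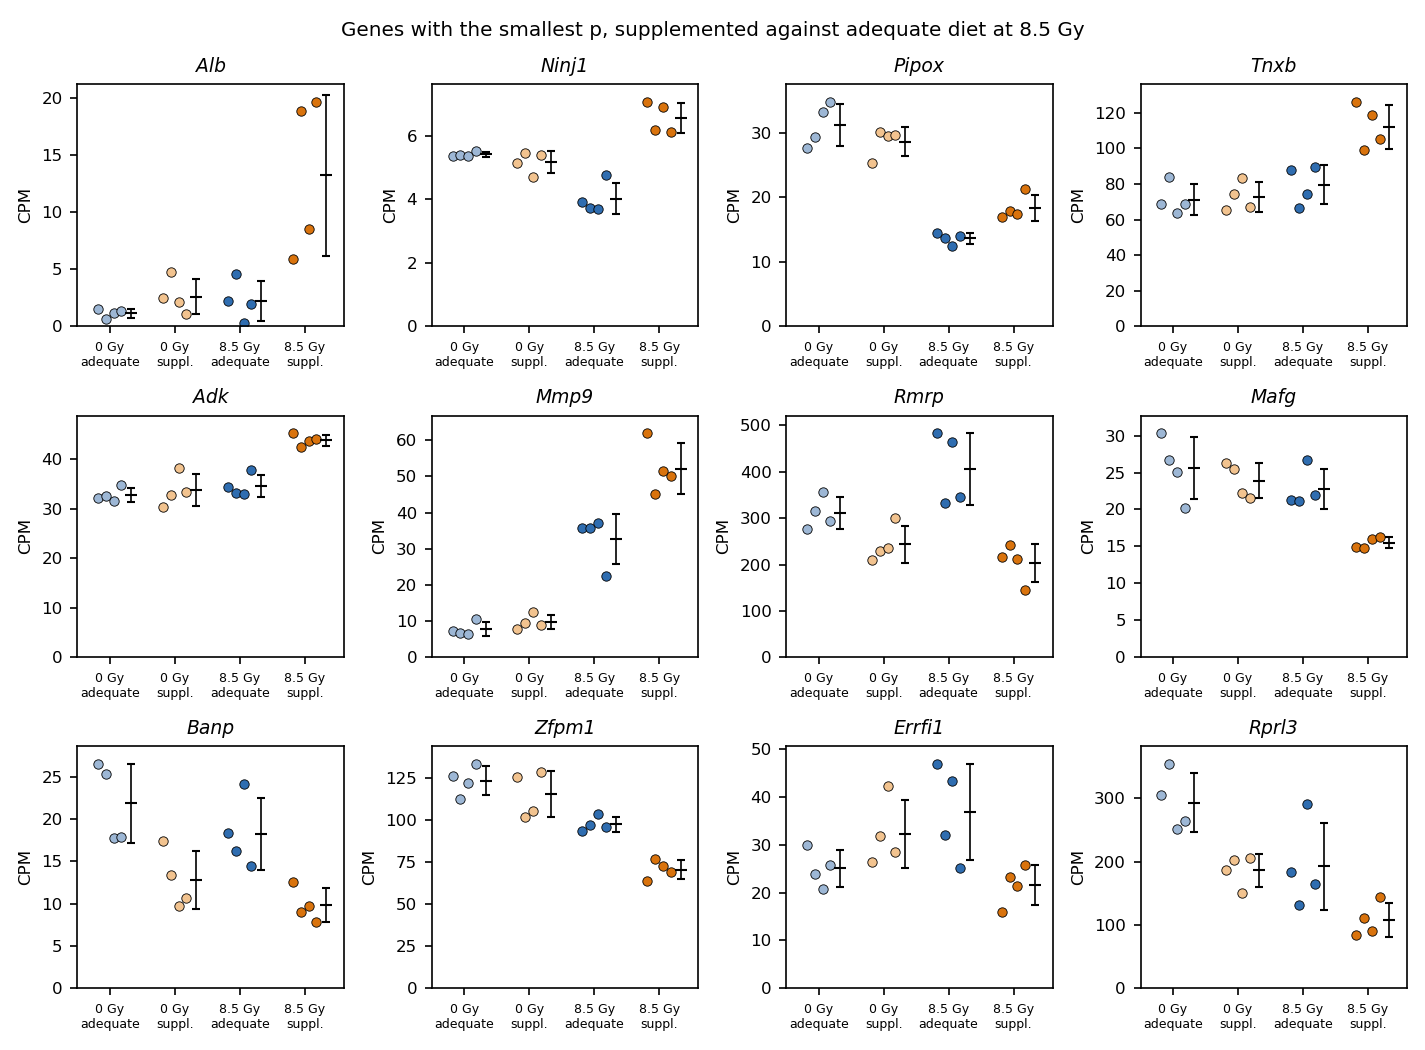
CPM of the 6 genes with the smallest p in each direction (the first 6 higher, the last 6 lower on the supplemented diet), in all 16 libraries by group, with points for libraries and bars for the mean and SD of 4. In Alb, Ninj1, Pipox, Tnxb, Adk and Mmp9 the irradiated supplemented libraries lie above the irradiated adequate ones, and in Rmrp, Mafg, Banp and Zfpm1 below, while Errfi1 and Rprl3 overlap.

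Among the lower values the smallest p of all genes belonged to Rmrp, the RNA of the nuclear ribozyme RNase MRP, which cuts precursors of ribosomal RNA. It is shown because it leads the comparison, and it is 271 bases long. The sequence is from the GENCODE M21 transcripts on GRCm38 (chr4:43492788-43493058, - strand), with the ID and length that the files give.
Rmrp: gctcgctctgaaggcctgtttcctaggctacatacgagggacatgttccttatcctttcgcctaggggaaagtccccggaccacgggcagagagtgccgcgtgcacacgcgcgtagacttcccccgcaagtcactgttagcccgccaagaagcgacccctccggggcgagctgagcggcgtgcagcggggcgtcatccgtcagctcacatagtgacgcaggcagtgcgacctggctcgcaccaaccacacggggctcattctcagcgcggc
Rmrp was at 483, 333, 465 and 347 CPM on the adequate diet and 217, 242, 212 and 146 CPM on the supplemented diet. The highest supplemented library was below the lowest adequate one. The difference was -0.996 ± 0.18 (edgeR quasi-likelihood, adjusted p = 0.486), a level of about 0.501 times that on the adequate diet. DESeq2 gave an adjusted p of 9.75e-05 and weighted voom 0.0356. At 0 Gy the diet difference of Rmrp was -0.35, and the interaction was not called for it by edgeR. Rprl3, a gene of the related RNase P RNA type, was at 184, 131, 291 and 165 CPM on the adequate diet and 84.2, 111, 91.1 and 145 CPM on the supplemented diet. S4 reached into the adequate range, and the difference was -0.84 ± 0.22 at 8.5 Gy and -0.65 at 0 Gy.

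The protein-coding genes on this side were regulators. Mafg, a small Maf protein that pairs with NRF2 on DNA, was at 21.3, 21.2, 26.7 and 21.9 CPM on the adequate diet and 14.97, 14.8, 15.98 and 16.3 CPM on the supplemented diet, a difference of -0.56 ± 0.13. Zfpm1, a cofactor of GATA factors, was at 93.1, 96.7, 104 and 95.7 CPM on the adequate diet and 63.7, 76.6, 72.7 and 68.9 CPM on the supplemented diet, a difference of -0.46 ± 0.11. Neither gene overlapped between the diets, and at 0 Gy their differences were -0.081 and -0.095. Banp, which binds unmethylated CpG-rich promoter motifs, was at 18.4, 16.2, 24.2 and 14.4 CPM on the adequate diet and 12.6, 9.06, 9.71 and 7.85 CPM on the supplemented diet, a difference of -0.94 ± 0.22 beside -0.75 at 0 Gy. Errfi1, a feedback inhibitor of the EGF receptor, was at 46.8, 31.9, 43.3 and 25.2 CPM on the adequate diet and 15.8, 23.3, 21.4 and 25.8 CPM on the supplemented diet. Here A4 lies within the supplemented range, and the difference was -0.76 ± 0.20 against 0.38 at 0 Gy. Across all genes, 282 (1.7%) were lower and 238 (1.44%) higher in every supplemented library than in every adequate one, 520 (3.14%) in all.

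RNAs of the mitochondrial genome were another group on the lower side. They were singled out after their values were seen. The mitochondrial genome encodes both RNAs of the mitochondrial ribosome, 22 transfer RNAs and 13 messenger RNAs, all cut from long shared transcripts. The small ribosomal RNA mt-Rnr1 was at 16369.5, 14921, 13998 and 9610.4 CPM on the adequate diet and 5788, 5166, 4543 and 3056 CPM on the supplemented diet, and its difference was -1.57 ± 0.31 (edgeR quasi-likelihood, adjusted p = 0.486). The large one, mt-Rnr2, was at 57466, 52753, 47289 and 26454 CPM on the adequate diet and 20306, 24699, 16502 and 11586 CPM on the supplemented diet, and its difference was -1.33 ± 0.32 (adjusted p = 0.673 in the same test). Neither overlapped between diets, and DESeq2 and weighted voom called both. Both were lower on this diet without irradiation as well, with differences of -1.52 and -1.04 on the log2 scale. As a share of all gene counts, mitochondrial ribosomal RNA was 5.46% ± 1.27 (SD, n = 4) on the adequate and 2.19% ± 0.703 on the supplemented diet after irradiation.

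**Figure D2:**
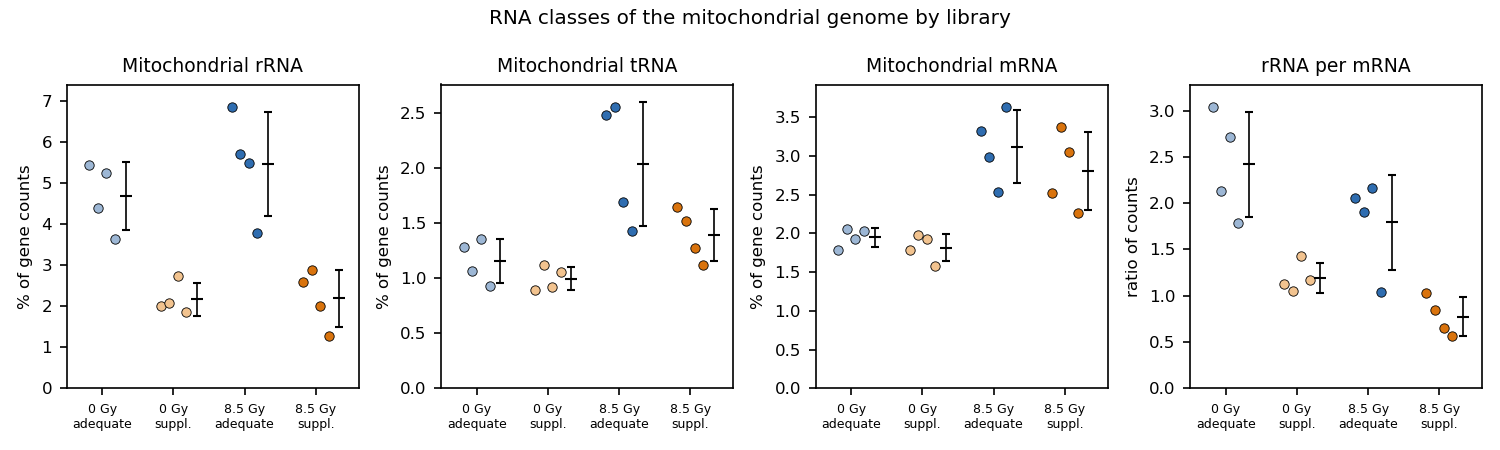
Share of gene counts from mitochondrial ribosomal, transfer and messenger RNA, and the ratio of ribosomal to messenger RNA counts, in all 16 libraries by group, with points for libraries and bars for the mean and SD of 4. Ribosomal RNA is lower on the supplemented diet at both doses, without overlap, whereas messenger RNA shares of the irradiated diets overlap.

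Transfer RNAs were below 0 as a class after irradiation. Of 22 genes 20 were tested, all 20 had a negative difference, and 11 had p under 0.05, beside 3.13% of all genes. Their median was -0.82, and at 0 Gy it was -0.027. The interaction had p under 0.05 in 7 of the 20 on the lower side, beside 2.54% of all genes. The RNAs mt-Tt, for threonine, and mt-Tl1, for leucine, had the smallest p and are printed from GENCODE M21 on GRCm38 (mt-Tt chrM:15289-15355, + strand, and mt-Tl1 chrM:2676-2750, + strand), with the anticodon in capitals.
mt-Tt: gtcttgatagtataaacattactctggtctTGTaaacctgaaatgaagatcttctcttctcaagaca
mt-Tl1: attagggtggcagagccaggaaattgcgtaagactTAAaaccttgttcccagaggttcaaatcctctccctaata
mt-Tt was at 397, 454, 298 and 96.5 CPM on the adequate diet and 100.4, 129, 93.4 and 45.1 CPM on the supplemented diet. A4 lay inside the supplemented range, and the difference was -1.76 ± 0.43. mt-Tl1 was at 358, 439.8, 299 and 308 CPM on the adequate diet and 199, 257, 232 and 140.0 CPM on the supplemented diet. These groups do not overlap, and the difference was -0.76 ± 0.22 after irradiation against 0.34 at 0 Gy. edgeR's quasi-likelihood test of the interaction gave mt-Tl1 an adjusted p of 0.790.

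The messenger RNAs of the same genome stayed closer together. All 13 were tested, and 11 were below 0. On the lower side 1 had p under 0.05, beside 3.13% of all genes, and their median was -0.18. The ratio of ribosomal to messenger RNA counts was 2.06, 1.91, 2.17 and 1.04 in A1 to A4 and 1.03, 0.851, 0.655 and 0.566 in S1 to S4, so that A4 is next to S1. The nuclear genes of the respiratory chain did not follow, with 4 of 39 at p under 0.05 on the higher side (2.13% of all genes), none on the lower side and a median of 0.086. Ribosomal RNA was removed by a kit before these libraries were made, so the ribosomal values are what was left after removal. Lars2, the mitochondrial leucyl-tRNA synthetase gene, was at 16104, 9180.2, 10631 and 7975 CPM on the adequate diet and 9382, 7269, 7294 and 2984 CPM on the supplemented diet, a difference of -0.70 beside -2.20 at 0 Gy. The irradiated groups overlap. Between the doses on the adequate diet the mean of Lars2 went from 19208 to 10972 CPM, while that of mt-Rnr2 went from 32247 to 45990.5 CPM. The ribosomal RNA gene n-R5s193 was at 91.5, 5.81, 148 and 48.2 CPM on the adequate diet after irradiation. On the supplemented diet it was at 0, 34.1, 35.6 and 22.2 CPM. These groups overlap, and its difference was -1.64 ± 1.07 beside -2.50 at 0 Gy. The part of the removal step in these differences was not tested.

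The enzymes that handle methionine itself differed little between the diets. For the methionine cycle and transsulfuration, 21 of 24 listed genes were tested and 0 had p under 0.05 in edgeR's test, beside 5.26% of all genes. Their median difference was 0.062, that of all genes -0.00027, and 16 of the 21 intervals lay within 2-fold. Mat2a, the catalytic subunit of the enzyme that makes S-adenosylmethionine outside the liver, was at 83.4, 75.5, 73.01 and 80.7 CPM on the adequate diet and 107, 85.4, 78.4 and 59.6 CPM on the supplemented diet. S1 is the highest and S4 the lowest of the 8, and the difference was 0.072 (95% interval -0.22 to 0.37). Its partner Mat2b differed by 0.12 (interval -0.13 to 0.36). Methionine synthase, Mtr, which remakes methionine from homocysteine, differed by -0.062 (interval -0.40 to 0.28).

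On the transsulfuration side, Cth, which releases cysteine from cystathionine, was at 37.8, 43.1, 39.4 and 38.6 CPM on the adequate diet and 46.4, 43.7, 40.98 and 52.9 CPM on the supplemented diet. The groups overlap, with A2 above S3, and the difference was 0.22 (interval -0.029 to 0.46). Cbs, the enzyme before it, was under 2 CPM in every irradiated library, which left an interval of -0.80 to 1.45. Ahcy, which splits S-adenosylhomocysteine, had 0 CPM in A2 and between 3.91 and 10.6 in the other 7, and its interval was -0.31 to 1.44. Bhmt and Gnmt, liver enzymes of methionine metabolism, had too few counts to test.

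**Figure D3:**
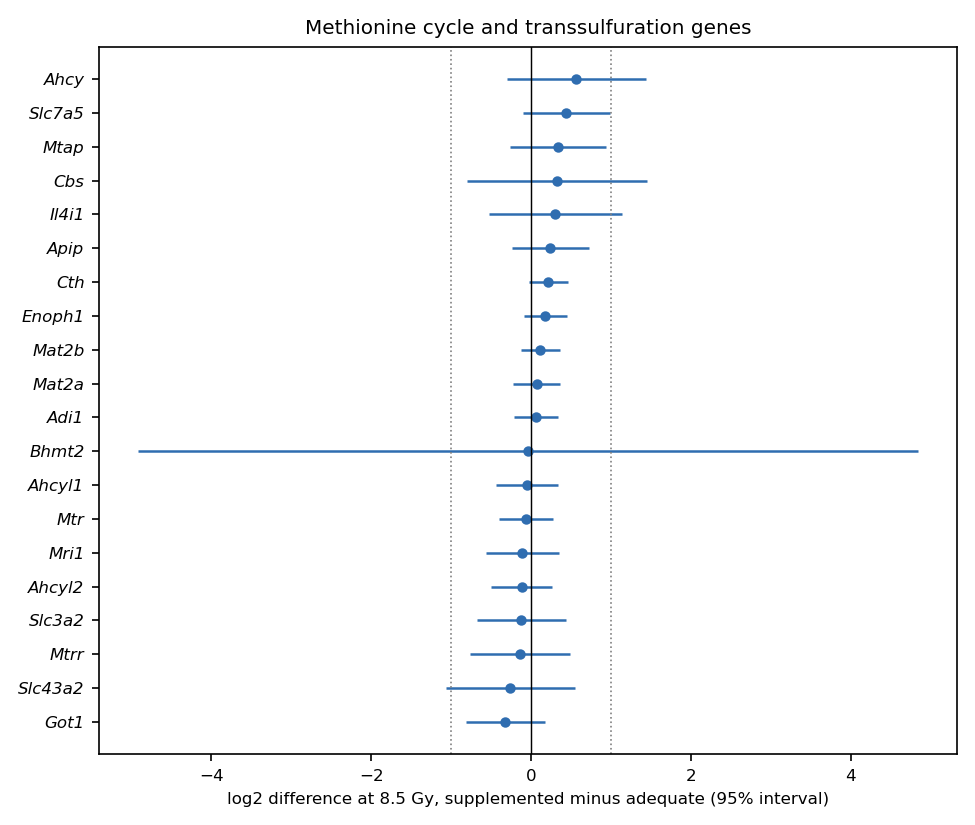
Difference between diets at 8.5 Gy for 20 of the 21 tested genes of the methionine cycle and transsulfuration, as points with 95% intervals on the log2 scale, with dotted lines at a 2-fold change. All 20 intervals shown include 0 and 15 lie within 2-fold, while that of Bhmt2, a gene with few counts, spans -4.91 to 4.84.

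Lists of pathways fed by methionine had 0 to 2 genes each at p under 0.05. The background was 5.26% of all genes in either direction and 2.13% on the higher side. Polyamine genes had 0 of 17 at p under 0.05 (median 0.018), with ornithine decarboxylase Odc1 at -0.023 (interval -0.32 to 0.28), S-adenosylmethionine decarboxylase Amd1 at -0.19 and spermidine synthase Srm at -0.0094. Writers, erasers and readers of DNA methylation had 0 of 17 (median 0.010), and all 17 intervals lay within 2-fold. Dnmt1, the maintenance methyltransferase, was at 60.7, 56.4, 55.6 and 89.6 CPM on the adequate diet and 93.3, 79.5, 83.3 and 49.8 CPM on the supplemented diet. A4 stands above its group and S4 below its own, and the difference was 0.21 (interval -0.16 to 0.59). For the de novo enzyme Dnmt3a it was -0.11 (interval -0.35 to 0.14). Folate enzymes had 1 of 19 at p under 0.05 on the higher side, Mthfs at 0.50. Of the 19, 17 were above 0 with a median of 0.12. Cysteine and glutathione genes had 2 of 27 on the higher side, glutathione reductase Gsr at 0.34 and the transferase Gstp1 at 0.32. Of the 27, 19 were above 0 with a median of 0.11. NRF2 targets had 0 of 22, all 22 intervals within 2-fold. Gclc, which limits glutathione synthesis, was at 122, 119, 136 and 37.6 CPM on the adequate diet and 89.8, 105, 100.1 and 107 CPM on the supplemented diet, where A4 alone is far below the rest.

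Absorptive enterocyte genes varied widely among the irradiated libraries, and the order of the libraries crossed the diets. Relative to the mean of the 8 unirradiated libraries, the mean log2 CPM of 24 brush border hydrolases was 0.020, 0.67, 0.45 and -0.92 in A1 to A4 and -1.02, -0.12, 0.027 and 0.72 in S1 to S4. A4 and S1, 1 of each diet, were lowest, and A2 and S4 highest. The 24 transporters of sugars and amino acids stood at 0.069, 0.47, 0.35 and -0.60 and at -0.86, -0.051, 0.018 and 0.44, with the same libraries at the ends. In bulk tissue, fewer enterocytes and less of these RNAs per enterocyte cannot be told apart.

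The spread is larger than among unirradiated libraries. Over 4 enterocyte lists (brush border, transporters, apolipoproteins, fructose handling), 91 of 94 genes were tested. Their median SD of log2 CPM within a diet group was 0.675 after irradiation and 0.252 without, and it was larger after irradiation in 83 of 91. For all genes the medians were 0.321 and 0.250, and 10907 of 16558 were larger after irradiation. Between diets, 0 of these 91 genes had p under 0.05 on the higher side, beside 2.13% of all genes. On the lower side 1 had, the iron transporter Slc11a2 at -0.44, beside 3.13% of all genes. The median of the 91 was -0.098.

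**Figure D4:**
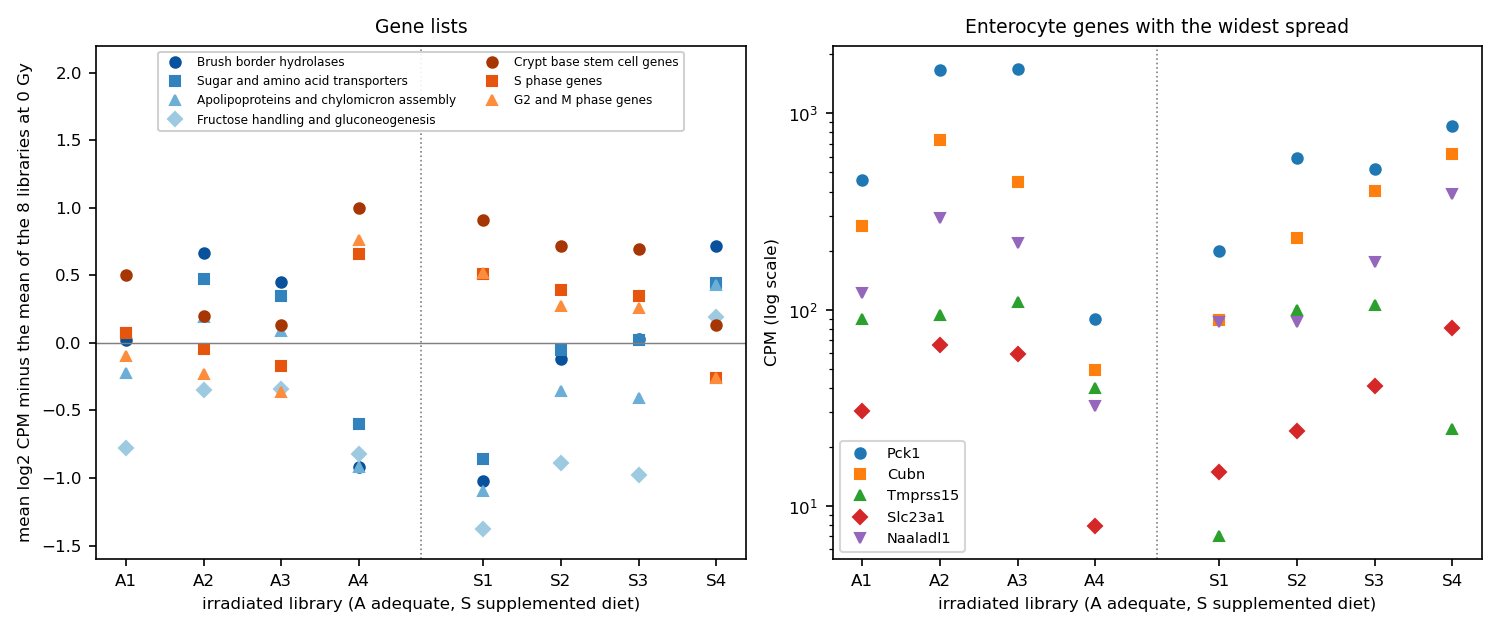
Left, mean log2 CPM of 4 enterocyte lists and of stem cell and cell cycle lists in each irradiated library, minus the mean of the 8 libraries at 0 Gy. Right, CPM on a log scale of the 5 enterocyte genes with the widest spread. A4 and S1 are lowest for most enterocyte points and highest for stem cell and cell cycle lists, and the order crosses the dotted line between diets.

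The 5 genes with the widest spread show its size. Pck1, the key enzyme of gluconeogenesis, was at 460.2, 1669.9, 1687 and 89.5 CPM on the adequate diet and 198, 592, 523 and 861 CPM on the supplemented diet. A4 and A3, on the same diet, are the lowest and the highest of the 8. Cubn, the receptor for intrinsic factor with vitamin B12, was at 267, 729, 449 and 49.4 CPM on the adequate diet and 88.3, 232, 401 and 623 CPM on the supplemented diet, with A4 and S1 lowest and A2 and S4 highest. Slc23a1, a vitamin C transporter, was at 30.6, 65.97, 59.4 and 7.91 CPM on the adequate diet and 14.97, 23.97, 40.7 and 80.7 CPM on the supplemented diet in the same order at both ends. Naaladl1, a brush border peptidase, was at 121, 292, 218 and 32.2 CPM on the adequate diet and 86.3, 86.7, 174 and 386 CPM on the supplemented diet. Tmprss15, enteropeptidase, which activates trypsinogen, departs from the others, since S1 and S4 were both low in 7.04, 99.2, 105 and 24.5 CPM, against 89.6, 93.8, 109 and 39.6 CPM in A1 to A4. The diet difference of these 5 genes lay between -0.84 and 0.16, with SEs of 0.56 to 0.74.

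Promoters are shown for 2 of these genes, Pck1, which is lowest in A4 and S1, and Tmprss15, which is lowest in S1 and S4. They run from 250 bases before to 50 after the RefSeq start (build GRCm38.p6), at chr2:173152823-173153122 on the + strand and at chr16:79091048-79091347 on the - strand. Capitals mark matches on either strand to GTTAAT (half-site of HNF1), CAAAGT (half-site of HNF4) or TTTATG (core of CDX2 sites), motifs of factors that are known to drive enterocyte genes.
Pck1 promoter: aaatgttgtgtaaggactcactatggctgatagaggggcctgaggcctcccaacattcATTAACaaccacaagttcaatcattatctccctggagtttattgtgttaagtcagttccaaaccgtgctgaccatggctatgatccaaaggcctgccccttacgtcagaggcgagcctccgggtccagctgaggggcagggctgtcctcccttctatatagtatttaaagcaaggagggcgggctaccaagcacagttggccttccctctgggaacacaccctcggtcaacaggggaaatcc
Tmprss15 promoter: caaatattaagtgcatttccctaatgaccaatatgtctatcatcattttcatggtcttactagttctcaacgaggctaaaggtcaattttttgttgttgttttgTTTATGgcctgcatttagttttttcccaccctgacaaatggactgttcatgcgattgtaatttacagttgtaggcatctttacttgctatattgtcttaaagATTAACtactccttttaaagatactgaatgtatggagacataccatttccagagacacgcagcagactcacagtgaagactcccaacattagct
Pck1 holds GTTAAT, read on the opposite strand, and Tmprss15 holds GTTAAT on the opposite strand and TTTATG, and these matches do not overlap. Cubn had none of the 3. Among the 91 tested enterocyte genes, 79 matched a promoter, and GTTAAT was found in 18 of 79 (22.8%), CAAAGT in 24 of 79 (30.4%) and TTTATG in 14 of 79 (17.7%). Over all genes in the table these shares were 8.24%, 16.1% and 13.6%. A match describes letters only.

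In several widely used enterocyte markers A4 and S1 were again the lowest, but not in all. The neutral amino acid transporter Slc6a19 was at 812, 1265, 1150.0 and 143 CPM on the adequate diet and 246, 632, 517 and 739.9 CPM on the supplemented diet, the peptide transporter Slc15a1 at 672, 1103, 975 and 163 CPM on the adequate diet and 269, 558, 633 and 876 CPM on the supplemented diet. A4 and S1 were lowest in both. The apolipoprotein gene Apoa4 was at 8806, 15005, 13203 and 3623 CPM on the adequate diet and 3340.2, 8486, 7078 and 19059.7 CPM on the supplemented diet, with S4 highest and S1 and A4 lowest. Intestinal alkaline phosphatase Alpi was at 1408, 1764, 1789.7 and 749 CPM on the adequate diet and 322, 1328, 1216 and 1178 CPM on the supplemented diet, and sucrase-isomaltase Sis at 2768, 4461, 3472 and 4230.3 CPM on the adequate diet and 2026, 2780.2, 3380.2 and 10813 CPM on the supplemented diet. S1 stands alone in Alpi, where S4 was below every adequate library but A4. S4 stands alone in Sis, which departs from the order, since A4 was below only S4 and A2. The sign of the diet difference in Sis, Lct and Naaladl1 turns when S4 is left out, to -0.45, -0.74 and -0.50. In Lct and Naaladl1 it also turns without A4, to -0.0018 and -0.19. That of Apoa4 turns without S1, to 0.18, and also without A2, A3 or S3, to 0.15, 0.054 and 0.020.

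Crypt genes ran the other way across libraries. Crypt base stem cell genes were at 0.50, 0.20, 0.13 and 0.998 relative to 0 Gy in A1 to A4 and 0.91, 0.72, 0.69 and 0.13 in S1 to S4, and genes of G2 and M phase at -0.097, -0.23, -0.36 and 0.76 and 0.51, 0.27, 0.26 and -0.26. A4 and S1 were highest in both lists, and S4 and A3 lowest. Between diets, 0 of 22 stem cell genes and 1 of 53 cell cycle genes had p under 0.05, beside 5.26% of all genes. The stem cell receptor Lgr5 differed by -0.016 (interval -0.51 to 0.47) and the proliferation marker Mki67, at 179, 162, 138 and 353 CPM on the adequate diet and 304, 245, 225 and 141 CPM on the supplemented diet, by 0.13 (interval -0.41 to 0.68). Targets of p53 had 0 of 29 at p under 0.05, beside the same 5.26% of all genes, and a median of -0.078. The cell cycle inhibitor Cdkn1a was at 85.8, 126, 131 and 54.2 CPM on the adequate diet and 46.1, 52.97, 59.03 and 103 CPM on the supplemented diet, with A4 among the supplemented values and S4 among the adequate ones, a difference of -0.59 ± 0.31 (adjusted p = 0.937, edgeR).

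Paneth cell genes had the most members on the higher side among the epithelial lists. Of 28 genes 25 were tested, and 9 had p under 0.05, beside 2.13% of all genes, with a median of 0.42 and 23 of 25 above 0. None passed adjustment. Lysozyme, Lyz1, was at 2681, 2765, 2831 and 3471 CPM on the adequate diet and 5131, 3349, 4064 and 3954 CPM on the supplemented diet. A4 is above S2 there, and the difference was 0.49 ± 0.21. The phospholipase Pla2g2a was at 1527, 2198, 1873 and 2146 CPM on the adequate diet and 3568, 2448, 2744 and 2829 CPM on the supplemented diet, without overlap and with S1 highest, a difference of 0.58 ± 0.20. The alpha-defensin Defa30 was at 312, 363, 321 and 745 CPM on the adequate diet and 953, 563, 835 and 831 CPM on the supplemented diet, with A4 among the supplemented values, a difference of 0.87 ± 0.34. Defensin copies are near identical and can share reads. The list median at 0 Gy was 0.49, with 11 of 25 at p under 0.05 on the higher side, beside 6.03% of all genes at that dose. Goblet cell genes after irradiation had 3 of 21 at p under 0.05 on the higher side, beside 2.13% of all genes, and 19 of 21 were above 0. The 3 were led by the chemokine gene Ccl6 (0.62) and by Spink4 (0.43), which is on the Paneth list too. The mucin Muc2 differed by 0.23 (interval -0.16 to 0.61).

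Fibroblast and matrix genes were above 0 in all 24 tested, 5 with p under 0.05 beside 2.13% of all genes, with a median of 0.37 and of 0.40 at 0 Gy. The proteoglycan gene Dcn was at 179, 142, 104 and 165 CPM on the adequate diet and 283, 223, 249 and 181 CPM on the supplemented diet, narrowly without overlap, a difference of 0.66 ± 0.20. Lum, a related proteoglycan gene, was at 9.61, 11.6, 6.66 and 16.5 CPM on the adequate diet and 23.2, 16.4, 22.7 and 18.7 CPM on the supplemented diet, with A4 just above S2, a difference of 0.86 ± 0.31. Summed over the 24 genes, the list was at 1994 to 4086 CPM on the adequate and 3026 to 3976 CPM on the supplemented diet, and smooth muscle genes, which mark the deeper wall, at 1714 to 2812 and 1826 to 2344 CPM. Both sums overlap between diets. Among immune lists, macrophage genes had 3 of 23 at p under 0.05 on the higher side, beside 2.13% of all genes. These were Fcgr1, Cd163 and Itgam at 0.68, 0.61 and 0.43, and 19 of the 23 were above 0. On that side T cell genes had 0 of 22, dendritic cell genes 0 of 14, mast cell genes 0 of 5 and NF-kB and chemokine genes 0 of 17. B cell and plasma cell genes had 1 of 13, and neutrophil genes 1 of 6 with 1 more on the lower side. Immunoglobulin segments had 0 of 47 higher and 4 lower, beside 3.13% of all genes. The joining chain of secreted antibodies, Jchain, was at 111, 67.2, 112 and 113 CPM on the adequate diet and 162, 135, 139.7 and 118 CPM on the supplemented diet, a difference of 0.45 ± 0.26.

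Genes of the exocrine pancreas were above 0 in every tested member after irradiation. Of 25 genes 15 were tested, all 15 above 0 with a median of 1.09, and 3 had p under 0.05, beside 2.13% of all genes on the higher side. At 0 Gy the median was -1.70, and 8 of 15 had an interaction p under 0.05 on the higher side, beside 1.92% of all genes. The elastase gene Cela2a was at 0.317, 0.415, 0.819 and 0.250 CPM on the adequate diet and 0.587, 0.940, 1.17 and 1.26 CPM on the supplemented diet, a handful of counts per library. The summed level of the list was 713 to 904 and 689.7 to 1117 CPM, and Amy2a5, Cela3a, Prss1 and Prss3 had no count in any irradiated library. That sum is mostly Zg16, a gene that goblet cells make too, with means of 694 and 729.8 CPM. Pnliprp2 is on the Paneth list too. The part of pancreatic RNA in any other difference was not tested.

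Interferon genes differed by diet mainly in the unirradiated mice. Interferons switch on antiviral genes through receptors at the cell surface. Of 51 antiviral genes, 48 had p under 0.05 on the higher side at 0 Gy, beside 6.03% of all genes, and 9 were called, with a median of 1.05. After irradiation 1 of 51 had p under 0.05, on the higher side (2.13% of all genes), and the median was 0.18. The interaction, which tests the difference between the doses, had p under 0.05 on the lower side in 31 of 51, beside 2.54% of all genes. The interaction called 0 of 16558 genes after adjustment (738 at unadjusted p under 0.05, 4.46%), with a smallest adjusted p of 0.596 in edgeR's test and 2 calls in DESeq2.

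Promoters of Ifit3 and Trim30a are shown as examples of the antiviral set. They cover the same window in RefSeq on GRCm38.p6, at chr19:34583279-34583578 on the + strand and at chr7:104465144-104465443 on the - strand, and capitals mark the core of the interferon-stimulated response element on either strand, that is GAAA, any 2 bases and GAAA again.
Ifit3 promoter: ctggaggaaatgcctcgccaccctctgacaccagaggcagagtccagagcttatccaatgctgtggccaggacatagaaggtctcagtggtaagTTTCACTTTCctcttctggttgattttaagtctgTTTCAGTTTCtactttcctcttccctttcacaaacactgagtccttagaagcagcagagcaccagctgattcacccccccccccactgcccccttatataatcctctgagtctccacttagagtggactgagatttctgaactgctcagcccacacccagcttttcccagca
Trim30a promoter: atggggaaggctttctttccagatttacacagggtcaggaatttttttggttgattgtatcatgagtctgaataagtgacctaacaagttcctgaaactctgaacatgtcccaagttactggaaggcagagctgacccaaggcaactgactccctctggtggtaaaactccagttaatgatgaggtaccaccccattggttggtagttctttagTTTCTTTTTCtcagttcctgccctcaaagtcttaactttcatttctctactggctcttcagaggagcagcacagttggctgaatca
Ifit3 holds 2 separate matches and Trim30a 1, all read on the opposite strand. Of the 51 antiviral genes 38 matched a promoter, and 21 of 38 (55.3%) held the letters, against 3.99% of all genes in the table.

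Trim30a, an antiviral ubiquitin ligase, was at 42.2, 40.1, 55.8 and 42.04 CPM on the adequate and 140.4, 124, 115 and 102 CPM on the supplemented diet at 0 Gy. After irradiation it was at 31.7, 30.3, 30.7 and 68.1 CPM on the adequate diet and 45.5, 28.8, 30.1 and 39.2 CPM on the supplemented diet. The groups are apart at 0 Gy and overlap at 8.5 Gy, with A4 the highest irradiated library. The differences were 1.41 and -0.20 ± 0.24, with an adjusted interaction p of 0.712 in edgeR's test and an adjusted p of 0.0328 in DESeq2. Ifit3, which binds viral RNA as part of a complex, was at 14.3, 21.2, 12.4 and 39.7 CPM on the adequate diet and 36.7, 18.4, 29.7 and 47.7 CPM on the supplemented diet, a difference of 0.58 ± 0.38 against 1.97 at 0 Gy. Leaving out 1 irradiated library at a time gave 0.33 to 1.10 for Ifit3, the highest without A4. Ifitm3, which blocks virus entry, was at 52.5, 52.7, 37.99 and 103 CPM on the adequate diet and 110.0, 73.9, 63.1 and 60.4 CPM on the supplemented diet, a difference of 0.31 ± 0.27 against 1.84 at 0 Gy. A4 and S4 held the highest values of Ifit3 in their diets.

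**Figure D5:**
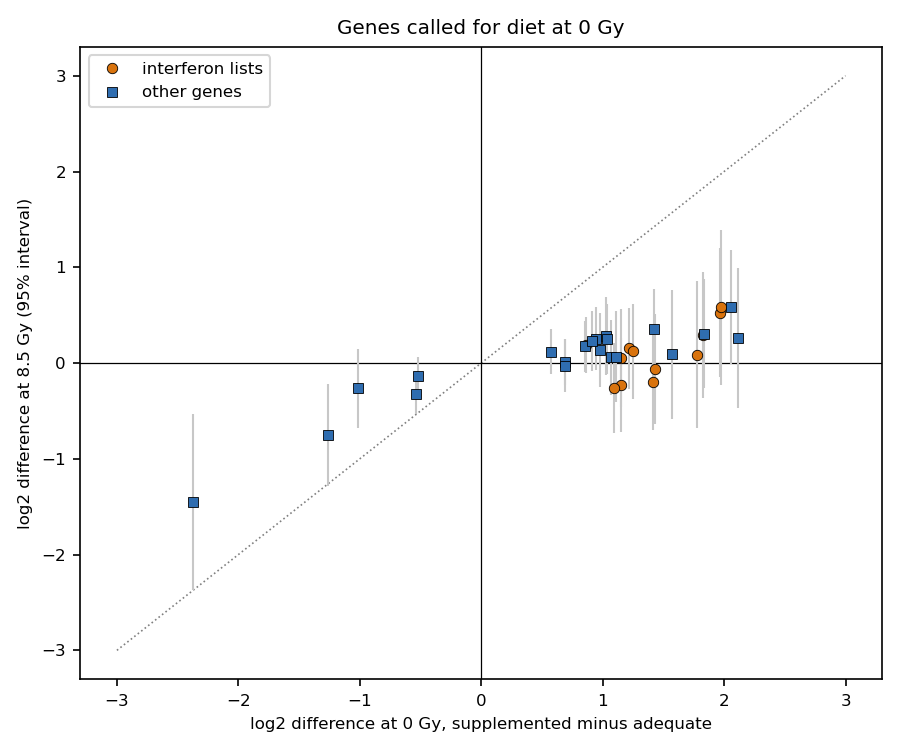
The 33 genes called for diet at 0 Gy, by their difference at 0 Gy (horizontal) and at 8.5 Gy (vertical, with 95% intervals), both log2, supplemented minus adequate, with circles for genes on interferon lists and a dotted line of equal differences. The 28 higher genes lie between -0.26 and 0.58 at 8.5 Gy, with a median of 0.14 and 23 of 28 above 0.

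At 0 Gy, 33 genes were called, 28 higher (0.169% of the genes tested) and 5 lower (0.0302%). They were chosen by values in the unirradiated libraries, which the irradiated comparison does not share. Of the 28, of which 12 are on an interferon list, 23 had the same sign after irradiation. At p under 0.05 there were 0 of the 28, beside 5.26% of all genes, and their median was 0.14 against 1.15 at 0 Gy. Of the 5 lower genes, 5 had the same sign and 3 had p under 0.05, beside 3.13% of all genes on the lower side. Safb, a nuclear matrix protein that binds RNA, was at 52.9, 41.9, 50.1 and 45.6 CPM on the adequate diet and 33.7, 40.01, 41.9 and 36.3 CPM on the supplemented diet. The ends meet at A2 and S3, and the difference was -0.33 ± 0.099 against -0.54 at 0 Gy. Rbm12b1, another RNA-binding protein gene, differed by -0.75 ± 0.25 against -1.26. The last of the 3, a gene ID without a symbol, differed by -1.45 ± 0.44 against -2.37.

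Reg3 lectins and immediate early genes also had lower diet differences after irradiation than without it. The antimicrobial lectins Reg3b and Reg3g were 1.75 and 1.33 higher on the supplemented diet at 0 Gy (adjusted p = 0.0863 for both, edgeR). After irradiation their differences were -0.15 and 0.076, with adjusted interaction p of 0.790 and 0.967. Reg3b was at 5521, 5409, 4251 and 1601 CPM on the adequate diet and 4534, 4701, 2676 and 3226 CPM on the supplemented diet. The list they belong to, antimicrobial lectins and defence genes of the epithelium, had 10 of 15 tested genes above 0 after irradiation, 2 with p under 0.05 on the higher side (2.13% of all genes), and 2 of 15 with an interaction p under 0.05 on the lower side (2.54% of all genes). Immediate early genes, which are induced within minutes of a stimulus or of tissue handling, had a median of 0.63 at 0 Gy and -0.23 at 8.5 Gy. Of 22 tested, 0 had p under 0.05 after irradiation in edgeR's test, beside 5.26% of all genes. An interaction p under 0.05 on the lower side was found in 12, beside 2.54% of all genes. The supplemented libraries at 0 Gy were uneven, with Egr1 at 52.8, 16.2, 68.2 and 157 CPM and Fos at 79.1, 18.5, 82.2 and 208 CPM. After irradiation Fos was at 69.1, 84.6, 96.9 and 50.1 CPM on the adequate diet and 17.9, 54.2, 58.4 and 43.3 CPM on the supplemented diet, with S1 lowest. Egr1 was at 19.7, 17.4, 17.9 and 32.1 CPM on the adequate diet and 13.8, 13.96, 12.9 and 8.34 CPM on the supplemented diet, where the groups do not overlap, a difference of -0.86 ± 0.66.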

How the data were processed

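RNA of 16 libraries was analysed, 8 of them irradiated. Library making, per the labels, began with Ribo-Zero Gold depletion of ribosomal RNA, then fragmentation and a small RNA protocol. The submitters' processing notes name Bowtie2 2.2.9, RSEM 1.3.0, edgeR 3.2.4 and build NCBIM37. The deposited values are RSEM expected counts per gene, per the file headers, and were rounded to whole numbers here. RSEM divides reads shared by gene copies, and 125 tested genes had the same counts as another gene.

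GENCODE M21 named 32897 of 37620 gene IDs. filterByExpr kept 16558 genes. A quasi-likelihood fit of all 16 libraries with a mean per group, TMM scaling and robust dispersions (edgeR 4.0.16, R 4.3.3) gave the diet difference at each dose and their interaction, two-sided, adjusted by Benjamini-Hochberg over all genes. Intervals and SEs follow from that test. CPM use TMM-scaled totals. Alternatives included DESeq2 1.42.0 and limma 3.58.1. The code was tested on simulated data. Promoter sequences are from RefSeq.

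Named are 6 genes per direction and a fixed set of marker and pathway genes. The 5 enterocyte genes with the widest spread (mean log2 CPM at least 5) are named as well. The 6 per direction have the smallest p among genes with a symbol and a mean log2 CPM of at least 1. Left out there were predicted genes, pseudogenes, mitochondrial genes, receptor and immunoglobulin segments, microRNAs, and small nuclear, nucleolar and Cajal body RNAs. The ribozyme RNAs Rmrp and Rprl3 were kept. Other genes were chosen after their values were seen. A few genes are not reported here by name. The members, lists and rules were chosen with earlier results of these data known.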

Additional observations from a re-analysis of the deposited data

Results flagged for a closer look

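In 7 of 106 group-by-gene checks over the 53 named genes, 1 library lay apart from the other 3 of its group by more than Dixon's 95% critical value for a group of 4 allows, and chance flags about 1 in 20. In the adequate group, A4 was low for Mmp9 (22.6 CPM, the others 35.7 to 37.2) and high for the methyltransferase gene Dnmt1 (89.6 CPM, the others 55.6 to 60.7). A3 was high for Mafg (26.7 CPM, the others 21.2 to 21.9), and A2, a library of 2.85 M counts, was low for Jchain (67.2 CPM, the others 111 to 113). In the supplemented group, S1 was low for Alpi (322 CPM, the others 1178 to 1328). S3 was high for the stem cell zone gene Olfm4 (738 CPM, the others 509.5 to 548), and S4 for Sis (10813 CPM, the others 2026 to 3380.2). Only single libraries are involved, and none was left out of the reported values.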

How the results depend on the processing

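For the diet at 8.5 Gy the count of called genes was 0 in edgeR and stayed 0 under 15 of 19 alternatives. It became 11 with DESeq2 (5 higher, 6 lower) and 14 with voom and library weights (4 higher, 10 lower). Rmrp, mt-Rnr1, mt-Rnr2 and the pseudogene Gm2223 were called by both. Leaving out 1 library gave 0 to 1 calls, the 1 being Gm2223 without A4. Without A4 and S1 together, chosen after seeing the data, 2 genes were called for diet and 3 for the interaction. Genes at unadjusted p under 0.05 numbered 568 (without A3) to 3089 (weighted voom), with 2068 without A4 and 1633 without S4 against 871. The interaction count of 0 became 2 with DESeq2 and 1 with the enterocyte covariate, and lay between 0 and 2 when 1 library was left out, the 2 being Usp18 and Spats2l without S4. Of 1007 gene values under alternatives, 925 kept direction and side of the threshold, 75 took the other sign and 7 were called, and 32 of 53 named genes kept their sign throughout, Alb, Rmrp and the other 10 leading genes included. Without the libraries under 4 M counts the value became -0.084 for Mat2a, 0.067 for Odc1, 0.083 for Gclc, -0.13 for Mki67, -0.12 for Dclk1, 0.19 for Apoa1, 0.44 for Apoa4, 0.19 for Slc15a1 and 0.72 for Cubn. With the enterocyte level as a covariate the value became -0.013 for Mat2a, 0.0025 for Odc1, 0.16 for Gclc, -0.015 for Dclk1, 0.11 for Apoa4, 0.13 for Slc15a1, 0.039 for Pck1 and 0.46 for Cubn. Without A4 and S1, an alternative chosen after seeing the data, the value became -0.053 for Mat2a, 0.034 for Mtr, 0.18 for Lgr5, -0.26 for Reg3g and -0.084 for Slc23a1. With library weights in voom the value became 0.048 for Mtr, 0.28 for Lgr5, -0.21 for Sis, -0.63 for Lct, -0.16 for Reg3g, -0.29 for Slc23a1 and -0.43 for Naaladl1. With voom the value became 0.082 for Gclc, 0.043 for Lgr5, -0.032 for Dclk1, -0.055 for Sis and -0.47 for Lct. With DESeq2 the value became -0.024 for Slc23a1. Leaving out 1 irradiated library at a time gave ranges across 0 for Mat2a from -0.070 to 0.20, Mtr from -0.13 to 0.065, Odc1 from -0.075 to 0.041, Srm from -0.15 to 0.11, Gclc from -0.32 to 0.13, Mdm2 from -0.26 to 0.065, Mki67 from -0.031 to 0.52, Lgr5 from -0.25 to 0.25, Dclk1 from -0.071 to 0.16, Sis from -0.45 to 0.60, Lct from -0.74 to 0.51, Apoa4 from -0.69 to 0.18, Reg3b from -0.42 to 0.011, Reg3g from -0.13 to 0.23, Ifit1 from -0.023 to 0.59, Cubn from -0.62 to 0.40, Slc23a1 from -0.53 to 0.33 and Naaladl1 from -0.50 to 0.57. The cause of these turns was not tested. No paired analysis was possible because the labels carry no replicate numbers. A2 and S1, with 2.85 and 3.43 M counts, limit what can be seen in genes with a mean log2 CPM under 1.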
